A study of Mus musculus with 4 samples.

Results

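Elastic fibre and microfibril genes were examined in the skin of newborn mice with a knockout of loricrin, the major protein of the cornified envelope. The set comprised elastin (Eln), the fibrillins Fbn1 and Fbn2, the microfibril-associated genes Mfap2, Mfap4 and Mfap5, the fibulins Fbln1, Fbln2 and Fbln5, and the latent TGF-beta binding protein gene Ltbp1. Members were taken by symbol, as every probe set whose platform annotation names exactly 1 of these genes. This gave 19 probe sets for 9 of the 10 genes, out of 24833 probe sets and 13674 named genes in all. Expression of Fbn1 was not analysed here. Of the 19 probe sets, 14 lay on the first of 2 array types and 5 on the second.

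RNA came from whole skin collected at birth from loricrin knockout mice and from wildtype mice, all of strain FVB/N. Each genotype had 2 arrays, 1 on each array type, so no ratio within an array type has replicate error. The labels call the arrays of the second type replicates, but do not say whether they held RNA of other animals, nor how many animals gave each RNA. They do not describe the knockout allele further. Fewer cells of a type and less RNA per cell cannot be told apart in whole tissue.

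Elastic fibres consist of a core of cross-linked elastin laid down on a scaffold of microfibrils. The microfibrils are polymers of fibrillins, to which small microfibril-associated glycoproteins, fibulins and latent TGF-beta binding proteins attach. Elastin is secreted as a soluble monomer, carried to the scaffold with the help of fibulins and joined by lysyl oxidases. In skin these fibres are made mainly by dermal fibroblasts and run from the basement membrane into the deep dermis, where they give the tissue its recoil.

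The signal is the authors' MAS5 intensity, scaled so that both arrays of a type share a trimmed mean. Signals under 77.6 (first type) or 133 (second type) were raised to that floor. Where 1 array lay below the floor the fold is a lower bound, and where both did no fold is given. Of the defining keratinocyte genes Krt1 read 18714 in knockout skin and 26636 in wildtype skin, while Krt5 and Krt14 lay below the floor in both first-type arrays. Loricrin read 2013 in knockout skin and 41224 in wildtype skin, 20.5-fold lower on the first type. Xist read 857 in knockout skin and 24.7 in wildtype skin, and the Y-linked Eif2s3y 42.7 in knockout skin and 1071 in wildtype skin. Kdm5d, also on the Y chromosome, read 12.2 in knockout skin and 976 in wildtype skin with its brighter probe set of the other array type. Sex and genotype therefore cannot be told apart in any ratio given here. The 3′ to 5′ signal ratio of the actin control, a sign of RNA integrity, was 2.63 in knockout skin and 2.16 in wildtype skin on the first type. With the second it was 2.76 in knockout skin and 2.31 in wildtype skin. For the Gapdh control it was 1.15 in knockout skin and 1.14 in wildtype skin with the first type, and 1.18 in knockout skin and 1.07 in wildtype skin with the second. Their part in the results was not tested.

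In knockout skin 7 of the 19 probe sets read at least 2-fold lower than in wildtype skin and none read at least 2-fold higher. They belong to 6 genes, Eln, Fbn2, Mfap2, Fbln1, Fbln2 and Fbln5. For 3 of these genes, Eln, Fbn2 and Fbln1, another probe set of the same gene did not pass, and for Fbln1 the other 3 probe sets were bright and nearly equal in the genotypes. Mfap4, Mfap5 and Ltbp1 had no probe set past 2-fold. Without replicates, this 2-fold mark is a rule of size and not a test, and the words higher and lower are kept for what passes it.

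On the first array type 4 of 14 member probe sets were lower, where 1.22% of all probe sets and 1.91% of those above the floor in at least 1 array were lower. None was higher, where 0.869% of all were. On the second type 3 of 5 were lower, against a background of 1.84% of all probe sets and 2.8% of those above the floor in at least 1 array. Those 5 cover 3 genes, and 2 of the 3 lower ones are adjacent Fbn2 probe sets that may not be separate measurements. None was higher there either, where 1.48% of all were. The median log2 ratio of the 8 first-type members whose mean signal lay above the floor was -0.71, and that of all such probe sets was 0.01. For the 3 such members on the second type it was -2.65, against 0.00 for all. These 3 are Fbln5 and both second-type Fbn2 probe sets, and -2.65 is itself the bound of Fbn2 112910_f_at. Both Fbn2 probe sets had knockout signals below the floor, so they passed this filter through their wildtype signals. Eln entered likewise on the first type, where Fbln1 gave 4 of the 8. A member bright in wildtype and dim in knockout passes this filter partly through its wildtype signal. These medians therefore do not cover all members and do not measure the set as a whole.

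**Figure D1:**
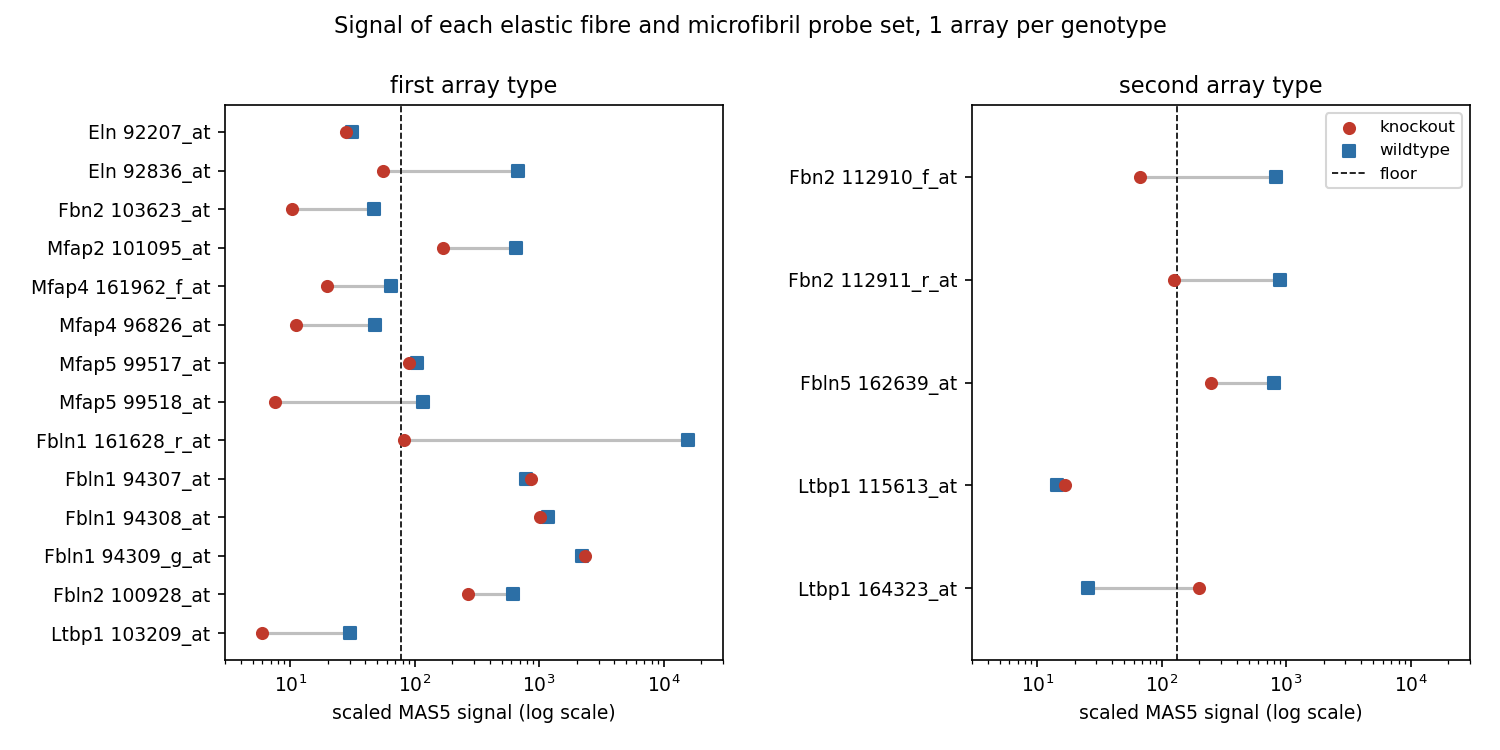
Scaled MAS5 signal (log axis) of each member probe set in the knockout array (red circles) and the wildtype array (blue squares) of each array type, with the floor as a dashed line and 1 array per point. Fbln1 161628_r_at spans 82.5 in knockout skin and 15720 in wildtype skin while the other Fbln1 probe sets lie close together, and 6 probe sets lie below the floor in both arrays.

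Upstream sequence from the RefSeq promoter table (build GRCm38.p6) was searched for 6 of the 10 members. Eln, Mfap4 and Mfap5 had no entry there, and Fbn2 was left out of the search. Sequence is shown for the 3 genes whose every probe set was lower, Mfap2, Fbln2 and Fbln5, each with a single probe set. The windows are the 250 bases before the first listed start, 5′ to 3′ on the gene's strand, and capitals mark GC boxes (GGGCGG on either strand), the site bound by Sp-family factors. They come from the reference strain C57BL/6J and not from FVB/N. Mfap2 lies at chr4:141010431-141010680 (plus strand), Fbln2 at chr6:91212514-91212763 (plus strand) and Fbln5 at chr12:101819120-101819369 (minus strand).
Mfap2: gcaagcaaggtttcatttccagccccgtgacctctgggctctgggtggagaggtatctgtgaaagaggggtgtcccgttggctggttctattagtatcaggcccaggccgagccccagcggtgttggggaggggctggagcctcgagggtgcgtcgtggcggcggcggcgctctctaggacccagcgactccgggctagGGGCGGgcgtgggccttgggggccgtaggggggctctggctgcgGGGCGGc
Fbln2: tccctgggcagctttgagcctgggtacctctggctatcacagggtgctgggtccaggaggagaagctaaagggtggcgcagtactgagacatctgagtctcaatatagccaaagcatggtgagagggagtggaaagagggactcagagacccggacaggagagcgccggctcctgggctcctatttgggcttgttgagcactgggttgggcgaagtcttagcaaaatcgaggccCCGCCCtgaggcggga
Fbln5: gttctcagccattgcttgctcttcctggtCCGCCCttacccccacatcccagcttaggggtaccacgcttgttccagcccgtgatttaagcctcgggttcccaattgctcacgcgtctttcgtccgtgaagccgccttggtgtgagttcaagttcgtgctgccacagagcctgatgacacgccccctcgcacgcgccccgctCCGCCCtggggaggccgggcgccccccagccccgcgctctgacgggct

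The Mfap2 and Fbln5 windows hold 2 GC boxes each and the Fbln2 window 1, and no other motif searched is in these 3 windows. The 6 members searched (Fbn1, Mfap2, Fbln1, Fbln2, Fbln5 and Ltbp1) have 10 listed starts, and Fbn2 is not counted. Of these 10 windows 5 hold a GC box, that of Fbn1 included, where 32.7% of 32817 promoter windows of the same length do. None holds a TATA box (TATAAA, in 12.4% of all) or an AP-1 site (TGANTCA, in 6.75%), searched on both strands. A SMAD element (CAGAC), the letters bound by the transcription factors of TGF-beta signalling, is in 6 of the 10, where 42.2% of all hold it. It is in the second listed windows of Mfap2 and Fbln5 and in both listed windows of Fbln1 and of Ltbp1. The Fbln1 windows overlap and share their matches, so the same sites count in both. These are matches of letters and say nothing about binding.

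Elastin, the extensible core of the fibre, was lower on 1 of its 2 probe sets. On 92836_at it read 55.9 in knockout skin and 676 in wildtype skin, at least 8.71-fold lower because the knockout signal lay below the floor. In wildtype the probe set stood at the 78.6th percentile of the array, and in knockout at the 35.7th. The other probe set, 92207_at, read 28.3 in knockout skin and 31.3 in wildtype skin, below the floor in both. The dim probe set allows no comparison.

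Fibrillin 2 (Fbn2), the fibrillin most abundant in fetal tissue, was measured on both array types. Of its second-type probe sets 112910_f_at read 67.2 in knockout skin and 836 in wildtype skin, at least 6.28-fold lower. The adjacent 112911_r_at read 125.8 in knockout skin and 897 in wildtype skin, at least 6.75-fold lower. Their suffixes mark probes that match a sequence family (f) or were picked under relaxed rules (r), and the sources used here do not say whether the probes overlap, so they may not be separate measurements. On the first type 103623_at read 10.3 in knockout skin and 47.4 in wildtype skin, both below the floor.

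Mfap2, also called MAGP-1, a small glycoprotein that binds fibrillin microfibrils, read 168 in knockout skin and 647 in wildtype skin on its single probe set 101095_at. That is 3.85-fold lower, with both signals above the floor and a log2 ratio of -1.94. Its relative Mfap5 (MAGP-2) was dim on both of its probe sets. On 99517_at it read 90.4 in knockout skin and 105 in wildtype skin, a log2 ratio of -0.22. On 99518_at it read 7.57 in knockout skin and 118 in wildtype skin, but the wildtype signal lay so near the floor that the bound is only 1.52-fold. With the floor at the 20th percentile that second probe set had a log2 ratio of -2.55, again a bound because its knockout signal lay below that floor too. Across the 9 other scalings and floors it was past 2-fold lower in 3, with log2 ratios from -3.79 to 0 over all 9.

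Mfap4, a fibrinogen-related protein that associates with elastic fibres, could not be compared. Its probe set 161962_f_at read 19.8 in knockout skin and 65.1 in wildtype skin, and 96826_at read 11.2 in knockout skin and 47.7 in wildtype skin. All 4 signals lay below the floor of the first type. In each case the knockout signal was the smaller. Signals in that range differed often, however, since of the 4518 first-type probe sets below the floor in both arrays 58.5% read less in knockout and 23.0% were lower by 2-fold or more before any floor. Of the 5 members in that class all 5 read less in knockout, 4 of them by 2-fold or more.

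**Figure D2:**
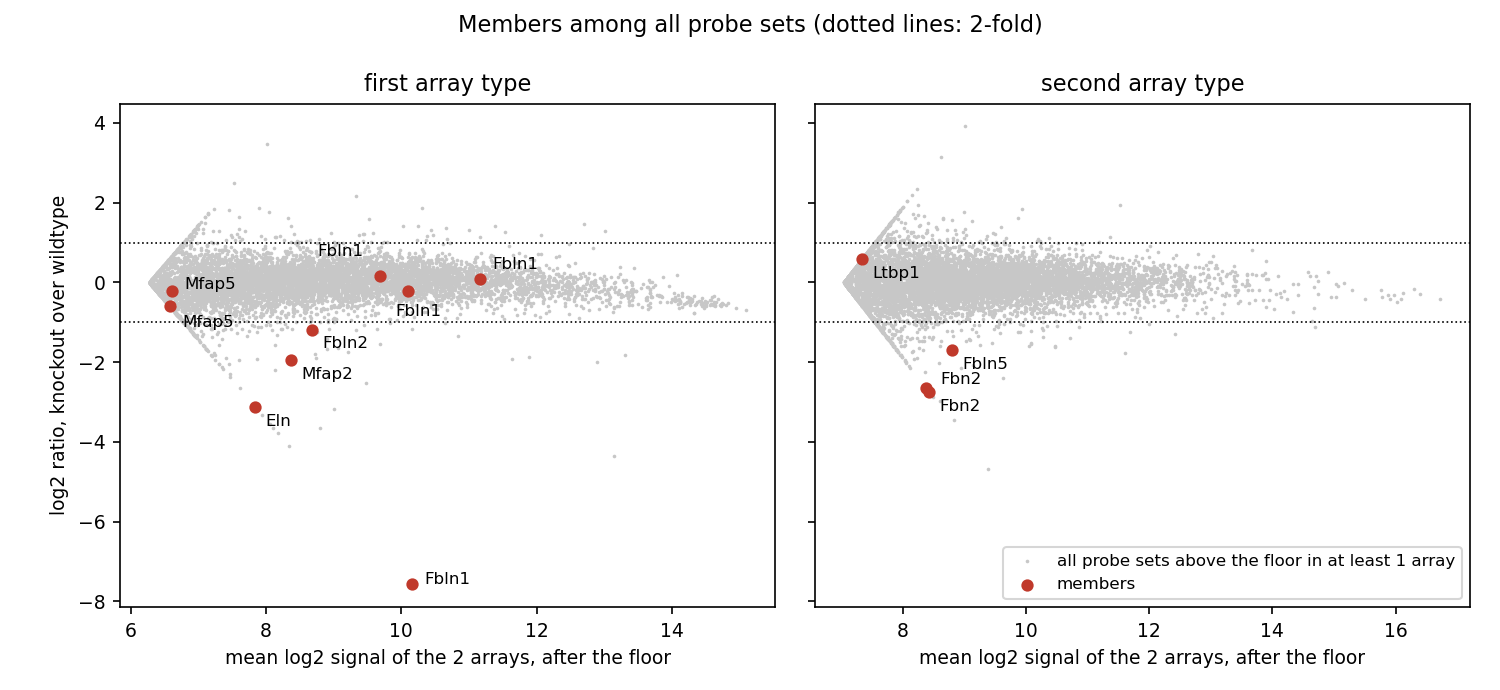
Log2 ratio of knockout over wildtype against the mean log2 signal of the 2 arrays after the floor, for all probe sets above the floor in at least 1 array (grey) and the 13 member probe sets among them (red), with dotted lines at 2-fold. Fbln1 161628_r_at, at -7.57, is the lowest point on the first array type, while the other Fbln1 probe sets lie between -0.22 and 0.15.

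Fibulin 1 (Fbln1), a glycoprotein found in basement membranes and within elastic fibres, held the most negative ratio on the first array type after the floor, and also 3 probe sets that barely differed. Probe set 161628_r_at read 82.5 in knockout skin and 15720 in wildtype skin, 191-fold lower, with the knockout signal just above the floor of 77.6. In wildtype it stood at the 99.3rd percentile of the array, and in knockout at the 41.6th. The remaining 3 did not pass: 94307_at read 865 in knockout skin and 780 in wildtype skin, 94308_at read 1013 in knockout skin and 1181 in wildtype skin, and 94309_g_at read 2356 in knockout skin and 2230 in wildtype skin. Their log2 ratios were 0.15, -0.22 and 0.08. The last 2 are annotated with the same source sequence, so they are not separate measurements of the gene.

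No other gene of the 900 with several first-type probe sets above the floor in mean signal had log2 ratios as far apart as Fbln1, at 7.72. Disagreement in itself was common among them. Of 24 genes with at least 1 lower probe set, 22 had another that was not lower, and in 17 of these genes another probe set lay within 1.5-fold of equality. Of the first-type probe sets with the r suffix above the floor in at least 1 array, 3.65% of 384 were lower, against 1.75% of 6355 with no suffix. Which Fbln1 probe set follows the transcript was not tested, so the gene is given here by probe set.

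Fibulin 2 (Fbln2), which binds fibrillin and basement membrane proteins, read 271 in knockout skin and 616 in wildtype skin on 100928_at, 2.28-fold lower. Among the members past 2-fold it was nearest to the threshold, with a log2 ratio of -1.19, and it did not pass under spike-in scaling (-0.50) or with the floor added as a pseudocount (-0.99). Fibulin 5 (Fbln5), which brings elastin and lysyl oxidase-like enzymes to the microfibril, was measured on the second type. It read 249 in knockout skin and 806 in wildtype skin on 162639_at, 3.24-fold lower, with both signals above the floor. Fbln5 was thus measured in both genotypes, while the bounds of Fbn2 rest on knockout signals below the floor.

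Ltbp1, which tethers latent TGF-beta to fibrillin, did not pass on any of its 3 probe sets, and their signals ran in different directions. On the first type 103209_at read 5.98 in knockout skin and 30.4 in wildtype skin. Its second-type probe set 115613_at read 16.6 in knockout skin and 14.4 in wildtype skin. Both probe sets lay below their floors, so no ratio is given. The remaining 164323_at read 198 in knockout skin and 25.4 in wildtype skin, a knockout over wildtype ratio of at least 1.49, short of 2-fold. It was past 2-fold when the floor was lowered to the 20th percentile, with a log2 ratio of at least 2.18. It was also past 2-fold when the floor was added as a pseudocount (1.06) and when no floor was set (2.92).

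The 6 genes with a lower probe set are spread over the core (Eln), the scaffold (Fbn2), its small bound glycoprotein (Mfap2) and the fibulins. In wildtype the 7 lower probe sets were of middle to high signal, 616 to 897 apart from Fbln1 161628_r_at. A probe set could pass as lower only with a wildtype signal at least 2-fold above the floor, so this follows partly from the rule. In knockout 3 of the 7 lay below the floor, those of Eln and Fbn2. Of the 19 member probe sets 15 read less in knockout before any floor. On the first type they were 12 of 14, where 52.7% of all probe sets read less, and 5 of the 12 lay below the floor in both arrays. On the second type they were 3 of 5, where 50.5% of all probe sets read less.

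**Figure D3:**
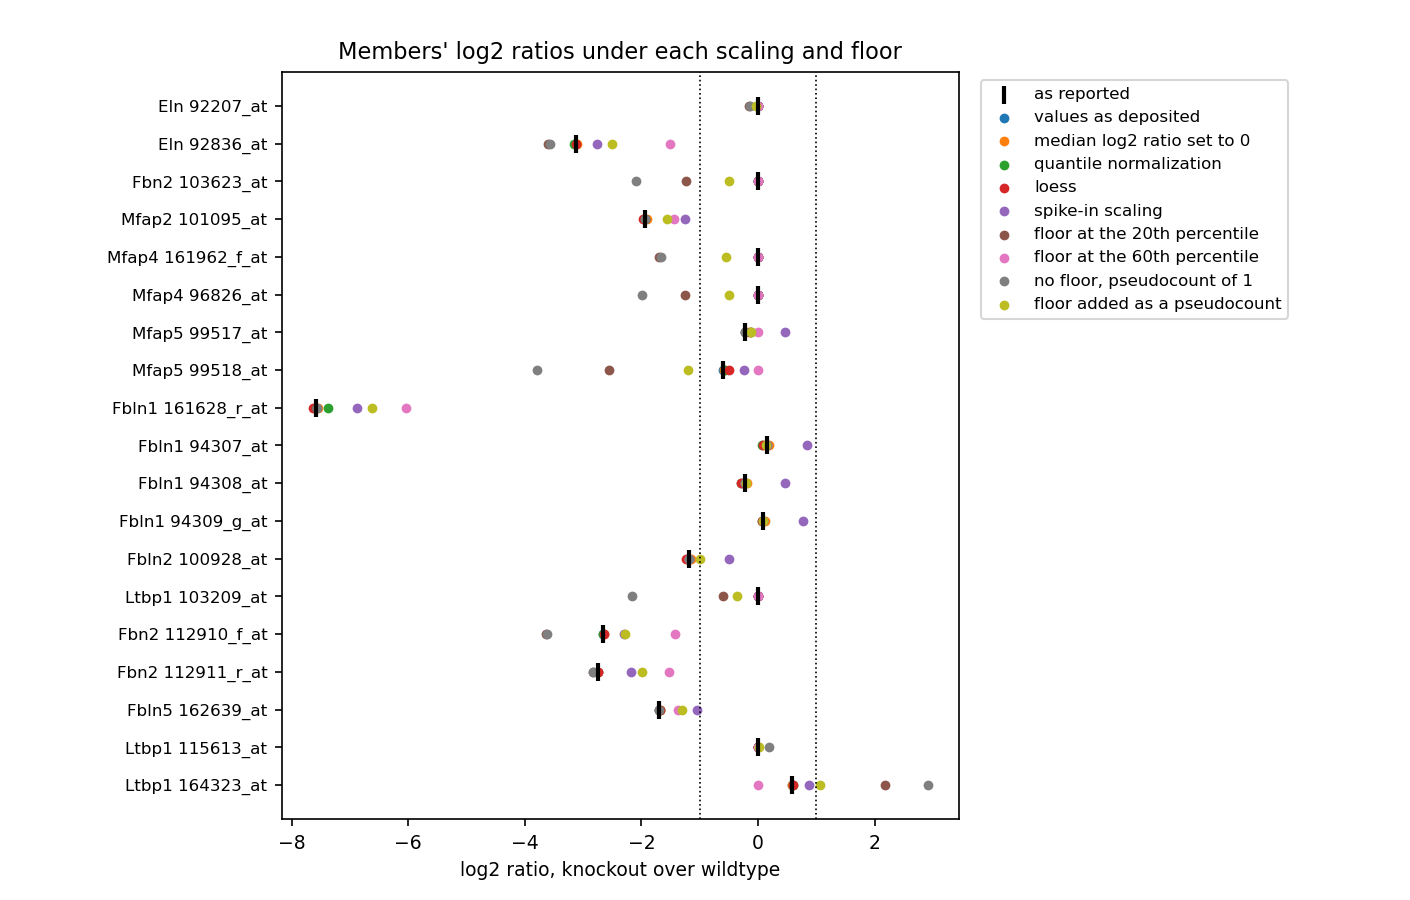
Log2 ratio of knockout over wildtype of each member probe set as reported (black bars) and under the 9 other scalings and floors (coloured points), with dotted lines at 2-fold. The lower probe sets of Eln, Mfap2, Fbn2, Fbln5 and Fbln1 stay to the left of -1 under every setting drawn, Fbln2 does not, and dim probe sets such as Mfap5 99518_at move with the floor.

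Only Fbn2 and Ltbp1 have probe sets on both array types, which is what a test over the 4 arrays needs. In limma, with the array type as a block, 1080 genes with a mean signal above the floor on both types were tested, and 1 gene (0.0926%), Sox11, named after the fit and in none of the lists, passed an adjusted p of 0.05. Neither Fbn2 nor Ltbp1 was among the 1080, because their first-type signals lay below the floor. For Ltbp1 the mean log2 signal of each second-type probe set lay below the floor as well. With the floor at the 20th percentile Fbn2 entered, with a log2 ratio of -1.24 from the first array type and one of -2.83 from the second. The first-type value is a bound, since the knockout signal of 10.3 lay below that floor of 20.1 as well. With that bound the mean log2 ratio of Fbn2 was -2.04 (SE 0.45) and below 0 on 2 of 2 types. Fbn2 did not pass (limma adjusted p = 0.669 over 1632 genes). With no filter on low signals the limma adjusted p was 0.685 for both Fbn2 and Ltbp1.

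Genes that act with the members were described from 6 lists, with 1 value per gene from its probe set of highest mean log2 signal. Of 66 such genes on the first type, members left out, 7 were lower and 1 higher, where 1.37% and 0.824% of all named genes were. Of 36 on the second type none was lower and 1 was higher, against backgrounds of 2.08% and 1.64%. The lower genes lay mostly among the matrix partners of microfibrils, and the 1 oxidase above the floor was lower as well.

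Among the lysyl oxidases that cross-link elastin, Lox read 4.71 in knockout skin and 321 in wildtype skin on the first type, at least 4.14-fold lower. A second Lox probe set read 25.5 in knockout skin and 54.6 in wildtype skin, below the floor in both arrays. Loxl1 on the first type and Loxl3 on the second lay below the floor in both arrays. Of the 3 measured oxidases Lox was therefore the only one that could be compared.

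Of 13 measured matrix partners on the first type, a list that also holds Fbln1, 5 were lower and 1 was higher. Biglycan (Bgn), a small proteoglycan that binds elastin and fibrillin, read 296 in knockout skin and 1696 in wildtype skin, 5.72-fold lower. A second Bgn probe set did not pass, at 216 in knockout skin and 401 in wildtype skin. The type VI collagen chain Col6a3 read 215 in knockout skin and 1080 in wildtype skin, 5.02-fold lower. Col6a2 was 3.88-fold lower, and lumican (Lum), a collagen-binding proteoglycan, was at least 3.84-fold lower. The remaining lower gene was Col6a1, at 3.19-fold, with a second probe set whose bound was only 1.72-fold. Perlecan (Hspg2), the basement membrane proteoglycan to which microfibrils attach, named like Col6a1 after its value was seen, was the higher gene, at 203 in knockout skin and 80.1 in wildtype skin, 2.54-fold. Its wildtype signal lay just above the floor. The list median was -0.26.

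Other fibulins, LTBPs, emilins and microfibril-associated genes held no gene lower by 2-fold. None of the 5 measured on the first type passed, the brightest being Ltbp4, at 424 in knockout skin and 387 in wildtype skin, and nephronectin (Npnt) followed at 117 in knockout skin and 136 in wildtype skin. Ltbp3, named after its value was seen, read 96.1 in knockout skin and 154 in wildtype skin. Of 18 on the second type none was lower and 1 was higher. That gene was Thsd4, also called ADAMTSL6, which promotes fibrillin assembly, with 1077 in knockout skin and 460 in wildtype skin, 2.34-fold. The fibrillin-binding relatives Adamtsl4, Adamts17 and Adamtsl2, named after their values were seen, did not pass but had log2 ratios of 0.93, 0.80 and 0.80. Mmrn2, an endothelial emilin relative also named after its value was seen, had one of -0.96. The list median was -0.07 for first-type genes and 0.12 for second-type genes.

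Microfibrils store TGF-beta and BMP ligands in latent form. Of 20 measured ligands, receptors and effectors on the first type, Ltbp1 included, 1 was lower, Bmp4, at 85.4 in knockout skin and 210 in wildtype skin (2.46-fold). The second-type probe set of Bmp4 did not pass, at 112 in knockout skin and 137 in wildtype skin. None of 12 on the second type passed, where Bmpr2 and Bmp2 were brightest, with log2 ratios of 0.02 and 0.00. The ligand gene Tgfb3, chosen after its value was seen, was just short of 2-fold, with a log2 ratio of -0.99 on the first type. Bmp7, chosen likewise, had 0.59 there and 0.87 on the other array type, a mean of 0.73 (SE 0.24) that did not pass (limma adjusted p = 0.395, above 0 on 2 of 2 types). Over the other limma settings with the block its adjusted p ran from 0.0647 at a 60th-percentile floor to 0.723 at a 20th-percentile floor.

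No receptor or protease gene passed 2-fold, but many were too dim to compare. None of 9 elastin and microfibril receptor and chaperone genes passed on the first type, where 4 were under the floor in each array, and none of 4 on the second, where 3 did. The protective protein Ctsa, part of the elastin receptor complex, read 4271 in knockout skin and 3861 in wildtype skin, and the integrin chain Itgb1 read 3311 in knockout skin and 2933 in wildtype skin. None of 19 elastin-degrading proteases and inhibitors passed on the first type, among them the inhibitor Cst3 (log2 ratio -0.64) and Ctsb (0.07). Of those 19, 7 lay below the floor in both arrays. The 1 measured on the second type, Serpinb1a, had a log2 ratio of -0.01. The list medians on the first type were 0.18 for the receptors and -0.35 for the proteases and inhibitors.

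**Figure D4:**
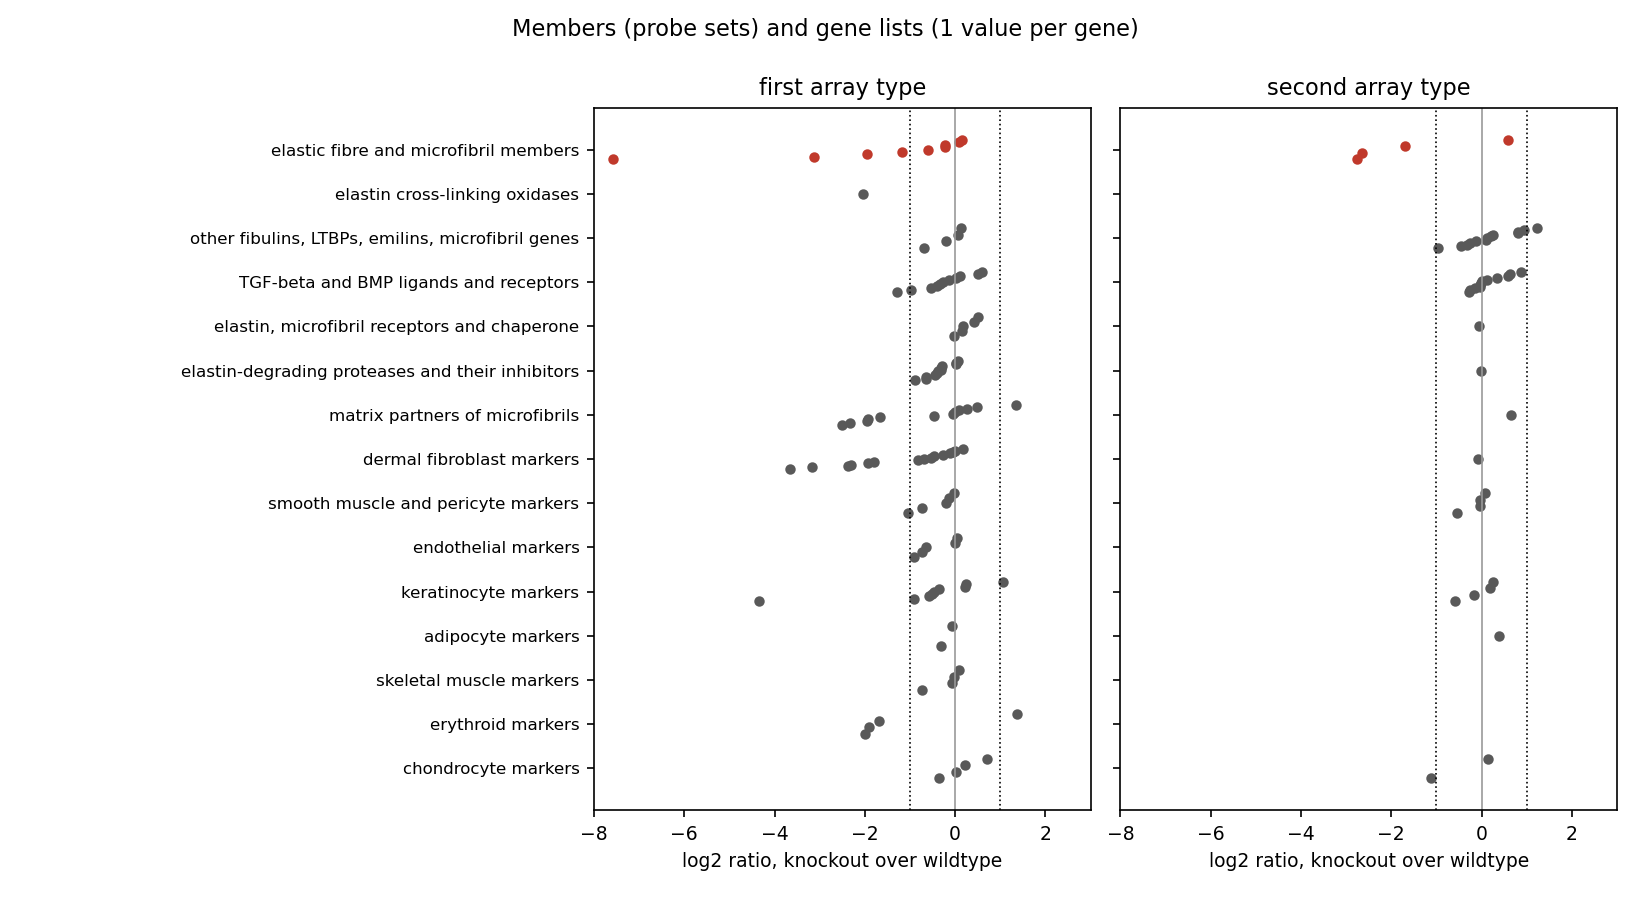
Log2 ratio of knockout over wildtype for the member probe sets (red) and for the genes of each companion and marker list (grey, 1 value per gene), by array type, leaving out values below the floor in both arrays, with dotted lines at 2-fold. Ratios past -1 occur in the members, the oxidases, the matrix partners and the dermal fibroblast and erythroid markers among others, while the receptors and proteases that could be drawn stay within 2-fold.

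Markers of several cell types moved in the same arrays, and their part in the members' ratios was not tested. Of 17 dermal fibroblast markers on the first type 6 were lower and none higher. As background for all marker counts, 1.37% of named genes were lower and 0.824% higher on that type. On the second type 2.08% were lower and 1.64% higher. Lum and Dcn also stand among the matrix partners, where Lum counts as lower too. The summed signal of the fibroblast markers was 10454 in knockout skin and 15524 in wildtype skin. Col1a1 read 172 in knockout skin and 1545 in wildtype skin, Col3a1 was at least 12.6-fold lower, Pdgfra at least 5.17-fold and Twist2 4.96-fold. Not all fibroblast products were lower, as periostin (Postn) read 5128 in knockout skin and 5536 in wildtype skin, and decorin (Dcn) 2462 in knockout skin and 2556 in wildtype skin, both named after their values were seen. Probe sets disagreed here in both directions. A further Pdgfra probe set had a log2 ratio of 0.53. Col1a2, counted as not lower from a probe set with a log2 ratio of 0.01, had another that read 125 in knockout skin and 1580 in wildtype skin, 12.7-fold lower. The single fibroblast marker on the second type, Col5a2, had a log2 ratio of -0.08 with a knockout signal below the floor, against -1.79 on the first.

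Smooth muscle cells, which also make elastin, had 1 lower marker of 8 on the first type, Tagln, at least 2.07-fold, with summed signals of 493 in knockout skin and 850 in wildtype skin. Their defining markers Myh11 and Cnn1 lay below the floor in both first-type arrays. None of 5 passed on the second type, where Myh11 read 403 in knockout skin and 381 in wildtype skin. Mylk read 255 in knockout skin and 371 in wildtype skin there, a log2 ratio of -0.54, against -0.73 on the first type. None of 10 endothelial markers passed on the first type, where Eng had a log2 ratio of -0.92, and both on the second lay below the floor. Erythroid markers had 3 lower and 1 higher of 7 on the first type, with summed signals of 5742 in knockout skin and 21876 in wildtype skin, led by Hba-a1 at 4.01-fold lower. Of 12 keratinocyte markers on the first type, the targeted loricrin was lower and Trp63 was higher (2.09-fold). Their summed signal was 83857 in knockout skin and 152288 in wildtype skin, of which loricrin alone gave 2013 and 41224. None of 4 keratinocyte markers passed on the second type, with summed signals of 120541 in knockout skin and 124931 in wildtype skin. Adipocyte and skeletal muscle markers had none past 2-fold on either type, but many were too dim to compare. On the first type 6 of 8 adipocyte and 7 of 11 skeletal muscle markers lay below the floor in both arrays. So did 1 of 2 adipocyte markers and the 1 skeletal muscle marker on the second type. Of chondrocyte markers 1 was lower, Col9a1 on the second type, at least 2.18-fold, while its first-type probe set had a log2 ratio of 0.70.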

How the data were processed

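The files hold the authors' deposited array intensity values, linear MAS5 signals with 1 value for every probe set, a method taken from the submitters' processing notes. Its version, scaling target and detection calls were not used here. The deposited columns had 2% trimmed means of 500.2 to 500.4. Each array type held 1 knockout and 1 wildtype array. These 2 arrays were set to an equal trimmed mean, and signals below the mean of their 40th percentiles were raised to that floor. Controls, 66 per type, were excluded. The log2 ratio is knockout over wildtype, and at least 2-fold is a rule of size, not a test.

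Members were named from the platform annotation, and other genes through RefSeq identifiers (GRCm38.p6). The members, lists, tests and rule for named genes were chosen with earlier results of these data known. That rule took every member probe set, up to 4 genes past 2-fold per list and array type (otherwise the 2 brightest), loricrin and 3 sex-linked genes. Not every gene that the rule takes is named, above all in the marker lists. Of the genes outside it many are marked, but markers such as Krt1, Krt5, Krt14 and Cnn1 are not. Genes on both types were fitted with limma 3.58.1 (lmFit, eBayes, Benjamini-Hochberg) in R 4.3.3, with the array type as a block. Whether the arrays came from separate animals is not stated, so its p-values may measure no spread between animals. In that fit the error of a gene rests on how far its ratios on the 2 array types differ. Those ratios come from different probe sets, so differences between probe sets enter it beside technical spread. Scripts ran in Python 3.11.15 and were tested on simulated data. Alternatives covered scaling, floor, fold, probe set choice and block. The number of arrays limits the precision.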

Additional observations from a re-analysis of the deposited data

How the results depend on the processing

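Across 9 other scalings and floors, no member probe set past 2-fold changed direction, and 5 genes (Eln, Fbn2, Mfap2, Fbln5 and Fbln1 by 161628_r_at) kept a probe set lower under each. Fbln2 did not pass in 2 of the 9. The median log2 ratio of members whose mean lay above the floor moved from -0.71 to -0.018 (first type) and from -2.65 to -2.18 (second type) under spike-in scaling, which raised the median of all such probe sets to 0.69 and 0.64 and the higher share of calls to 96.6% and 95.9%, against 41.7% and 44.7%. With 1 value per gene the medians were -1.19 and -2.22. The second-type median was -1.42 at a 60th-percentile floor, -1.99 with the floor as a pseudocount, -1.70 without suffixed probe sets and, added after the data were seen, -2.17 over probe sets above the floor in at least 1 array.

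Lower first-type member probe sets numbered 8 at a 20th-percentile floor and 9 with no floor and a pseudocount of 1. On the second type 1 was lower without suffixed probe sets, and 1 was higher under each of those 2 floors and with the floor as a pseudocount. First-type companion genes numbered 14 lower and 3 higher at a 20th-percentile floor, 3 and 0 at the 60th, 17 and 4 with no floor, 12 and 2 past 1.5-fold, and 6 higher under spike-in scaling, with 0 higher past 3-fold or with the floor as a pseudocount. On the second type 1 was lower at the 20th percentile, with no floor and past 1.5-fold, while 8 were higher under spike-in scaling, 2 with no floor, 7 past 1.5-fold and 0 past 3-fold. The cause was not tested.

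Limma called 1 gene of 1080, and 113 had an unadjusted p under 0.05. It called 0 with no replicate block, 0 under quantile normalization, 9 under loess, 0 with the floor at the 20th percentile, 6 at the 60th, 18 with the median over probe sets and 0 with no filter (added after the data were seen), none of them a member or companion gene. Leaving out a replicate leaves 1 array type and no test. Dim probe sets limit Mfap4, Mfap5 and Ltbp1.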
